A study of Mus musculus with 8 samples.

Results

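Genes of the actin cytoskeleton and of focal adhesions were followed in mouse intestinal organoids, which are epithelial cultures grown from the gut lining. The group holds 48 genes chosen by name for their known role: actins, proteins that bind or sever actin filaments, tropomyosins, non-muscle myosin II, filament crosslinkers and components of the sites where cells grip their matrix. Of these, 43 had at least 1 named probe among 19057 genes named on the array, with 98 probes between them. Testing needed a detection p below 0.05 on 4 or more of the 8 arrays, and 38 of the 48 genes, out of 9062 genes in all, had such a probe. Actg1, Cnn3, Nedd9, Ptk2 and Ezr had no probe with their name here and were not analysed, and Tpm2, Myh10, Vasp, Tln1 and Rdx had only probes below the detection filter.

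There were 4 samples of Apc-mutated organoids exposed to tamoxifen and to TGF-beta, a cytokine known as a brake on epithelial growth, at 3 ng/ml for 18 h. They were set against 4 samples of the same genotype that had tamoxifen and no TGF-beta. The labels give a C57Bl background and an age of 3 to 4 months for all 8. Both groups therefore share the mutation of Apc, a brake on Wnt signalling, and a medium without growth factors once tamoxifen was given, and organoids with intact Apc were not analysed here. The Cre line behind the tamoxifen step, pooling of animals, and the cultures behind the numbered samples are not stated in the sources used here. The p-values thus measure only how far these samples spread, and that spread may be technical in part.

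Actin monomers assemble into filaments that push the cell membrane outward, and myosin II pulls on filaments to create tension. Tropomyosins coat filaments and decide which other proteins may bind them, while alpha-actinins and filamins tie filaments into bundles and nets. At focal adhesions, talin, vinculin, zyxin, paxillin and kinases couple those filaments to integrins in the membrane. In the gut epithelium the same machinery builds the terminal web below the brush border and the contractile belt at cell junctions. Many of these genes carry binding sites for Srf, a transcription factor whose cofactors are released when free actin monomers become scarce.

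Each array detected between 14554 and 16626 probes above background. Arrays of 1 group correlated at 0.951 to 0.989 across tested probes. Replicates 1 and 4 stood apart from replicates 2 and 3 in both groups: Xist, the RNA of X chromosome silencing, was at most 4.69 in the first set and at least 9.3 in the second on the log2 scale. Eif2s3y, a gene of the Y chromosome, was 8.2 to 8.48 in the first set and 4.42 to 4.72 in the second, and the labels give no sex. Each set holds 2 TGF-beta and 2 untreated samples, so results are also given within sets where they move. Intestinal epithelial markers were present, with 8 of 8 tested. Epcam was detected on 4 TGF-beta arrays and on 0 untreated arrays. Of the markers of other cell types, 8 of 10 for fibroblasts, 5 of 8 for smooth muscle, 3 of 6 for endothelium and 2 of 6 for immune cells were detected on 0 arrays. Myh11, Actg2, Cnn1 and Tagln of smooth muscle were among these, while Cd3e of T cells was dim and detected on all 8 arrays and Csf1r of macrophages on 3 TGF-beta and 2 untreated arrays. In bulk samples, more cells of a type and more RNA per cell cannot be told apart.

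With TGF-beta, 21 of the 38 tested genes rose and 0 fell, where 9.57% of all 9062 tested genes rose, 9.88% fell and 19.4% did either (limma, adjusted p under 0.05 over all tested probes). Before adjustment, 29 had a p below 0.05 and were higher and 0 were lower, against 14.9% and 18% of all tested genes. The median log2 difference over the 38 was 0.67, against -0.05 over all tested genes. Differences above 0, passing or not, were found in 33 of the 38 and in 45.2% of all tested genes. In 22 of the 38, every TGF-beta value lay above every untreated value, as in 11.9% of all tested genes, and none of them had the reverse arrangement, found in 12.9%. The rising genes gained between 0.49 for the monomer-binding protein profilin, Pfn1, and 2.86 for the LIM protein Pdlim7. The members were picked for their function with earlier results of these data known, so the counts describe them and are not a test of the group.

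Both bright and dim probes were among the rising ones. Among genes with a mean above 10 on the log2 scale, 12 of 17 members rose, against 11.8% of all such genes (9.81% fell), and among those at 10 or below, 9 of 21 members rose, against 9.24%. Of the 31 members detected on all 8 arrays, 20 rose, and the share over all genes so detected was not computed. The other 7 members were detected on fewer than 4 arrays of a group, and among them Msn alone rose, with detection on 2 untreated arrays. When only probes with a detection p under 0.01 on all 8 arrays were tested, 22 of 31 members rose and 0 fell. Of all 6644 genes tested under that filter, 770 rose and 819 fell. A member that is above background in 1 group only can enter the fit through that group, so the count over tested genes favours those that differ. Taken per sample as the median deviation from the untreated mean, the 38 genes gave 0.71, 0.63, 0.59 and 0.6 in TGF-beta replicates 1 to 4, against 0.09, -0.1, -0.1 and 0.12 in untreated replicates 1 to 4. The 4 TGF-beta samples lay close together and apart from the untreated ones, whose replicates 1 and 4 were slightly above replicates 2 and 3.

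The call depended on how arrays were scaled. Quantile normalization, used here, gave 867 higher and 895 lower genes in all. With median scaling the median of all tested genes was -0.18 in place of -0.05, and that split became 495 higher and 941 lower. Of the 38 members, 10 then rose (26.3%, against 5.46% of all tested genes), 0 fell, and their median was 0.53. The 11 genes whose calls were lost with median scaling were Actn4, Arpc5, Bcar1, Lmo7, Myh9, Myl12a, Myl6, Pfn1, Tagln2, Tpm3 and Vcl, with differences of 0.37 to 0.76 there.

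**Figure D1:**
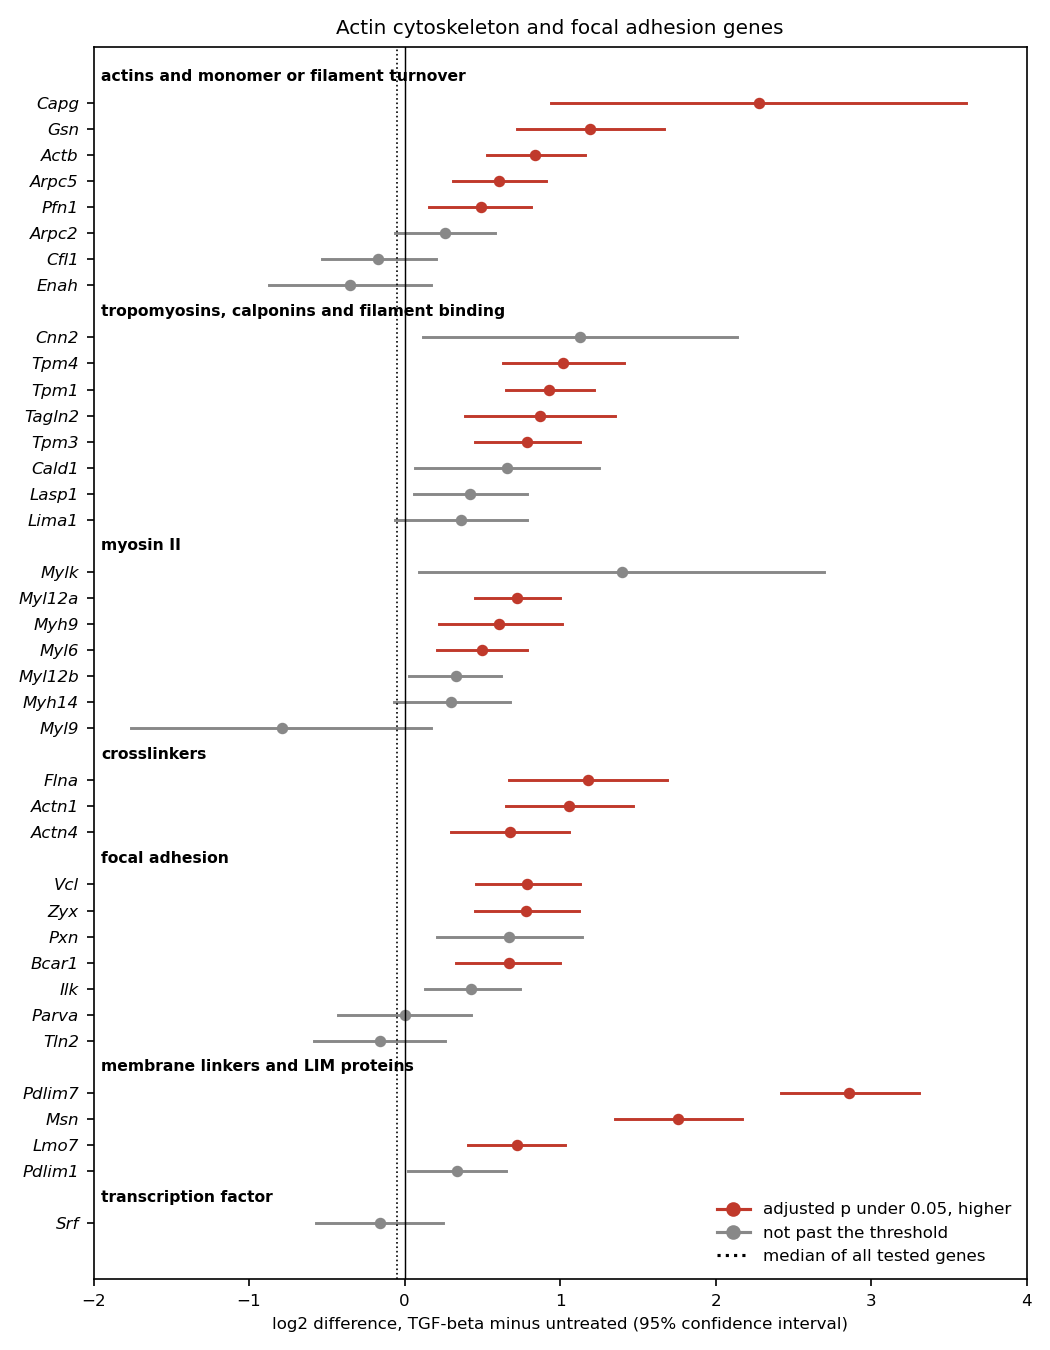
Log2 difference, TGF-beta minus untreated, for each of the 38 tested genes, ordered by role, with its 95% confidence interval (limma, 4 samples in each group). Red marks the 21 genes past the threshold, grey the others, and the dotted line the median of all tested genes (-0.05). All 3 crosslinkers rose and Srf lies just below 0.

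Promoters were read for the element that Srf binds, known as the CArG box. RefSeq promoters of GRCm38.p6, each 250 bases before to 50 bases after a gene's start, were found for 43 of the 48 genes, with 52 promoters among them. Actb, Tln2, Pxn, Ptk2 and Parva were not in the table. A CArG box was present in 7 of the 52 promoters (13.5%), 1 for each of 7 genes, against 535 of 32851 promoters in the whole table (1.63%). The genes were Vcl, Myl6, Myl9, Cnn2, Lima1, Srf and Actg1. The members were chosen by function, and several are textbook targets of Srf, so this share describes them and was not tested. The 250 bases before the start are printed here for 5 of them, 5′ to 3′ on the gene's own strand, with the CArG box in capitals, to set the element beside genes that rose (Vcl and Myl6), that changed with the replicate number taken into account (Cnn2 and Myl9) and that did not pass (Srf).
Vcl, chr14:20929148-20929397, plus strand: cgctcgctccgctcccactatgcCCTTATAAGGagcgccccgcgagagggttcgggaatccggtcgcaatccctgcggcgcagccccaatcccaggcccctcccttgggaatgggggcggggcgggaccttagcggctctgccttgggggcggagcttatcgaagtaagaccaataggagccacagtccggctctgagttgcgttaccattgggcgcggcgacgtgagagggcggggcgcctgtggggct
Myl6, chr10:128493010-128493259, minus strand: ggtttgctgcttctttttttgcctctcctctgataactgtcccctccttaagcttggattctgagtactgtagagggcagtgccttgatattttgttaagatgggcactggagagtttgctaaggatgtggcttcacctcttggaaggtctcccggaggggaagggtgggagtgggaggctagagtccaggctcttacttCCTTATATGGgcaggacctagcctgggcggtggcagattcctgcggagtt
Cnn2, chr10:79988350-79988599, plus strand: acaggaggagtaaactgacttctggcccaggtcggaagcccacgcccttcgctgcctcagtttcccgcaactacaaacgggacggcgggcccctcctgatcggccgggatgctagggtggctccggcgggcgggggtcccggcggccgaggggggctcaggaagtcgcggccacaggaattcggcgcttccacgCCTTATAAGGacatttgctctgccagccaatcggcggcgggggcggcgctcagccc
Myl9, chr2:156775214-156775463, plus strand: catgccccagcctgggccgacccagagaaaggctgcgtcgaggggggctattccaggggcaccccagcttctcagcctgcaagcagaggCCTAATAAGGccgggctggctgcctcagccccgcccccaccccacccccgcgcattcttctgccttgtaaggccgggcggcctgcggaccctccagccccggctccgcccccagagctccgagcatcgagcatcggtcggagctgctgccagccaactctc
Srf, chr17:46556163-46556412, minus strand: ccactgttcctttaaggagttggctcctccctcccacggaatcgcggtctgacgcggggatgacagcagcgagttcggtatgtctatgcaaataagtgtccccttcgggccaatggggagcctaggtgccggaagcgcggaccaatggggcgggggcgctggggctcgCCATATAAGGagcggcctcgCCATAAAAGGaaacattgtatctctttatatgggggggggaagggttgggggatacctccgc
Counted from the start that each printed promoter belongs to, the boxes begin at -227 in Vcl, -50 in Myl6, -56 in Cnn2 and -161 in Myl9. Another promoter of Myl6, which lies upstream of the printed one, holds 0 boxes. Srf, which is known to regulate its own gene, holds 2 boxes, at -82 and -62. Of 20 rising genes with a promoter in the table, 2 held a box, and of 14 tested genes that did not pass, 4 did. These counts are a description of the window, and a match is not evidence that the factor binds there. For comparison, the AP-1 motif TGANTCA was in 11.5% of member promoters and 7.81% of all, the TEAD motif CATTCC in 21.2% and 14.7%, and the short Smad motif CAGAC in 40.4% and 49.6%. Both strands were searched for all 4 motifs, and matches to different motifs overlapped in 0 places among member promoters.

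Of the actins and the proteins that build or cut filaments, 5 of 8 tested genes rose and 0 fell. Actb encodes the cytoplasmic beta-actin. Its brightest probe read 14.79, 14.72, 14.45 and 14.89 in TGF-beta replicates 1 to 4, against 13.75, 13.97, 13.83 and 13.93 in untreated replicates 1 to 4. The groups did not overlap, and the difference was 0.84 on the log2 scale (SE 0.141, 1.79-fold, adjusted p = 0.0028 in limma). That probe is near the top of the array's range, where the highest value of any probe is 15.4. Capg, which caps the fast-growing end of filaments, had the largest gain of this role, with 10.86, 9.7, 9.97 and 11.39 in TGF-beta replicates 1 to 4, against 8.63, 6.96, 7.33 and 9.9 in untreated replicates 1 to 4. Untreated replicate 4 was above TGF-beta replicate 2, so the groups overlapped, although each numbered TGF-beta sample was above its untreated counterpart. The difference in Capg was 2.28 (SE 0.602, adjusted p = 0.026), and its second, dimmer probe gave 0.9 (SE 0.254, adjusted p = 0.034). Without TGF-beta replicates 1 or 4 or untreated replicates 2 or 3, its call was lost (adjusted p up to 0.069).

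Gsn encodes gelsolin, which severs and caps filaments when calcium rises. It read 7.35, 6.84, 6.46 and 7.27 in TGF-beta replicates 1 to 4, against 5.84, 5.61, 5.61 and 6.09 in untreated replicates 1 to 4. The groups were apart, at a difference of 1.19 (SE 0.213, adjusted p = 0.0039). Arpc5, a subunit of the Arp2/3 complex that starts branched filaments, rose by 0.61 (SE 0.135, adjusted p = 0.012), and its second tested probe by 0.85. Pfn1, which delivers monomers to growing ends, read 11.33, 11.38, 11.54 and 11.57 in TGF-beta replicates 1 to 4, against 11.05, 10.83, 10.76 and 11.22 in untreated replicates 1 to 4. It rose by 0.49 (adjusted p = 0.044), and that call was lost in 7 of the 8 fits that left out a sample (adjusted p of 0.035 to 0.12 over the 8). Within replicates 1 and 4 it was 0.31 (adjusted p = 0.26). The others did not pass: Arpc2, another Arp2/3 subunit, gave 0.26, Cfl1, which encodes the filament-severing cofilin, -0.17, and Enah, an elongation factor of the Ena/VASP family, -0.35 with detection on 1 TGF-beta array and 3 untreated arrays.

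Of the tropomyosins and other proteins that lie along filaments, 4 of 8 tested genes rose. All 3 tested tropomyosins were among them, and Tpm2 was below the detection filter. Tpm1 read 12.36, 12.55, 12.43 and 12.32 in TGF-beta replicates 1 to 4, against 11.61, 11.39, 11.4 and 11.55 in untreated replicates 1 to 4. Its values within a group spanned far less than the gap between groups, and the difference was 0.93 (SE 0.129, 1.91-fold, adjusted p = 0.00095). Tpm4 read 12.9, 12.69, 12.96 and 12.75 in TGF-beta replicates 1 to 4, against 12.11, 11.33, 11.88 and 11.9 in untreated replicates 1 to 4. Untreated replicate 2 was the lowest, the groups did not overlap, and the difference was 1.02 (SE 0.177, adjusted p = 0.0034). Tpm3 read 12.08, 11.63, 11.68 and 11.76 in TGF-beta replicates 1 to 4, against 11.02, 10.86, 10.9 and 11.24 in untreated replicates 1 to 4, a difference of 0.79 (SE 0.153, adjusted p = 0.0061) with groups that did not overlap.

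Tagln2, a calponin-related actin binder found in many cell types, rose by 0.87 (SE 0.216, adjusted p = 0.02; 0.63 within numbers 1 and 4 and 1.11 within numbers 2 and 3), and its call was lost without TGF-beta replicate 4 or untreated replicates 2 or 3. The remaining 4 had positive differences that did not pass. Cnn2, a calponin that steadies filaments, gave 1.13 (adjusted p = 0.12, 2 untreated arrays), Cald1, the actin and myosin binder caldesmon, 0.66 (adjusted p = 0.12, 3 TGF-beta arrays and 1 untreated array), the LIM and SH3 protein Lasp1 0.42 (adjusted p = 0.11) and the filament-bundling protein Lima1 0.36 (adjusted p = 0.23).

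All 3 crosslinkers rose. Actn1, an alpha-actinin that bundles stress fibres, read 12.65, 12.55, 12.07 and 12.64 in TGF-beta replicates 1 to 4, against 11.63, 11.32, 11.09 and 11.63 in untreated replicates 1 to 4. Replicate 3 was the lowest of each group, the groups did not overlap, and the difference was 1.06 (SE 0.185, 2.09-fold, adjusted p = 0.0034). Flna, on the X chromosome, encodes the filament-net builder filamin A. It read 8.54, 8.2, 8.05 and 8.17 in TGF-beta replicates 1 to 4, against 7.65, 6.64, 6.71 and 7.25 in untreated replicates 1 to 4. The groups were apart at a difference of 1.18 (SE 0.229, adjusted p = 0.0061), 0.91 for replicates 1 and 4 and 1.45 for replicates 2 and 3. Actn4, the other alpha-actinin here, read 10.82, 11.43, 11.03 and 10.86 in TGF-beta replicates 1 to 4, against 10.28, 10.37, 10.18 and 10.59 in untreated replicates 1 to 4. It rose by 0.68 (SE 0.17, adjusted p = 0.021) with groups that did not overlap. Within replicates 1 and 4 it was 0.41 (adjusted p = 0.2), and its call was lost without untreated replicates 1 or 3.

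**Figure D2:**
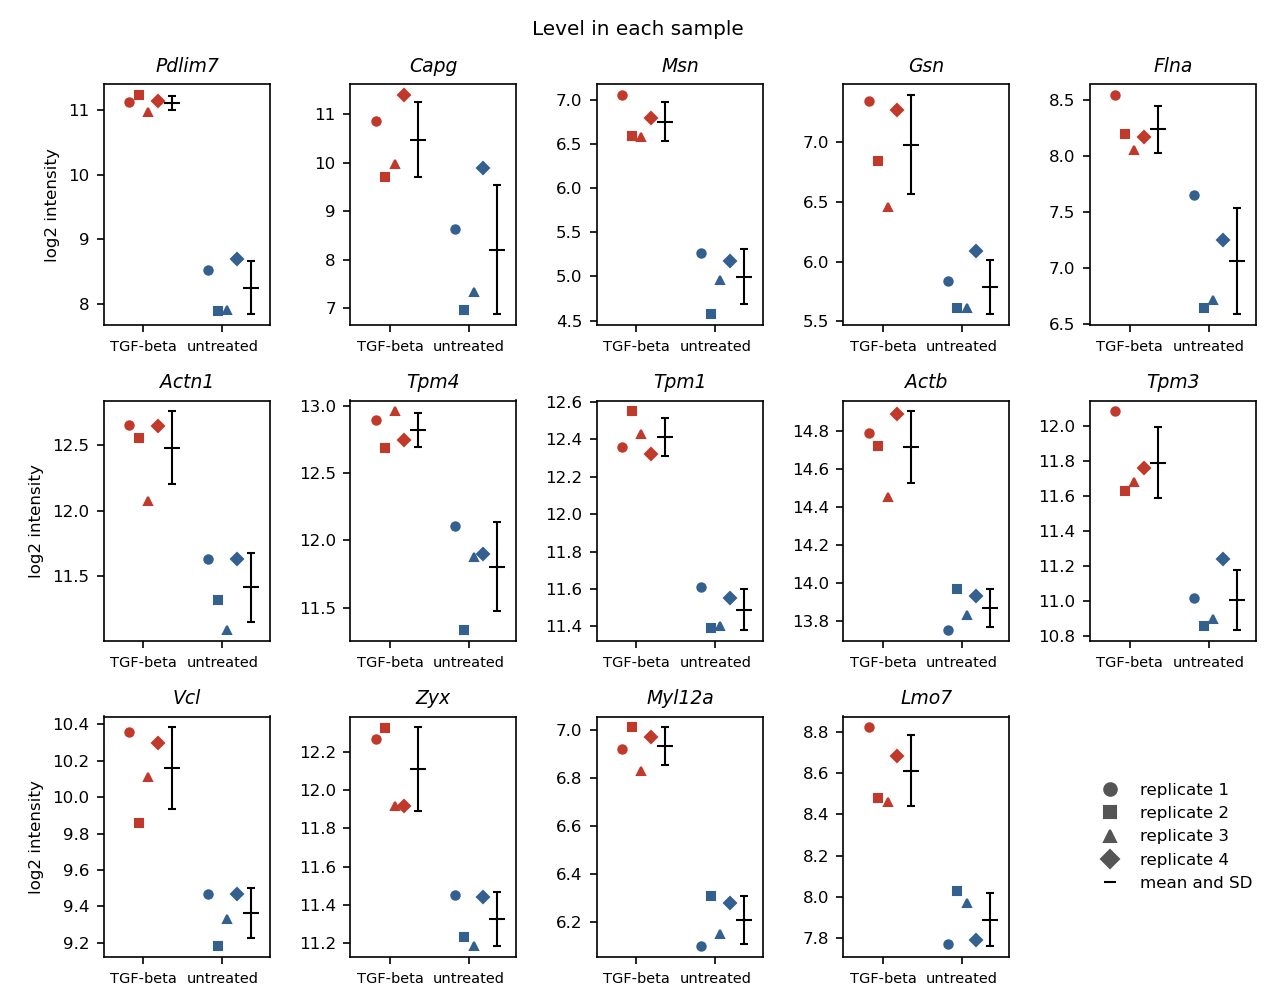
Normalized log2 intensity in each sample for the 14 genes that rose with a log2 difference of at least 1 or an adjusted p under 0.01, TGF-beta left (red) and untreated right (blue), with symbols for the replicate number and black bars for mean and SD (n = 4). Axes differ between panels and do not start at 0. Of the 14, Capg is the one whose groups overlap.

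Myosin II is the motor that tightens actin bundles, and 3 of its 7 tested genes rose. Myh9, the heavy chain of myosin IIA, read 11.74, 11.5, 11.1 and 11.47 in TGF-beta replicates 1 to 4, against 11.14, 10.86, 10.57 and 10.79 in untreated replicates 1 to 4. Its groups overlapped slightly, and it rose by 0.61 (SE 0.178, adjusted p = 0.038), a call lost in 6 of the 8 fits that left out a sample. Myl6, an essential light chain, read 12.69, 12.57, 12.71 and 12.67 in TGF-beta replicates 1 to 4, against 12.32, 11.97, 12.12 and 12.22 in untreated replicates 1 to 4. All its TGF-beta values were the higher, at a difference of 0.5 (SE 0.131, adjusted p = 0.024), a call lost in 5 of those 8 fits. Myl12a, a regulatory light chain, was steadier. It read 6.92, 7.01, 6.83 and 6.97 in TGF-beta replicates 1 to 4, against 6.1, 6.31, 6.15 and 6.28 in untreated replicates 1 to 4, a difference of 0.72 (SE 0.125, adjusted p = 0.0033) with a wide gap between groups. Myl12b, whose product is closely related, read 12.57, 12.45, 12.48 and 12.77 in TGF-beta replicates 1 to 4, against 12.24, 12.2, 12.14 and 12.39 in untreated replicates 1 to 4. It gave 0.33 (adjusted p = 0.13) on that brightest probe, and probes of such close relatives may share signal. Myh14, the heavy chain of myosin IIC, gave 0.3 (adjusted p = 0.26, 2 untreated arrays).

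The other myosin genes, Mylk and Myl9, were divided between the replicate sets, with differences of opposite sign. Mylk encodes the kinase that switches myosin on by phosphorylating its regulatory light chain, and Myl9 encodes such a light chain. Mylk read 8.87, 11.04, 10.35 and 9.03 in TGF-beta replicates 1 to 4, against 7.41, 9.49, 9.25 and 7.55 in untreated replicates 1 to 4. Replicates 2 and 3 were higher than replicates 1 and 4 in both groups, and each TGF-beta sample was above its untreated counterpart. Its difference of 1.4 did not pass over all samples (SE 0.589, adjusted p = 0.14), passed with the replicate number as a block (SE 0.131, adjusted p = 0.00011), and was 1.46 within numbers 1 and 4 and 1.33 within numbers 2 and 3. Myl9 read 4.88, 6.15, 6.05 and 5.15 in TGF-beta replicates 1 to 4, against 5.64, 7.25, 7 and 5.51 in untreated replicates 1 to 4. Here every TGF-beta sample was below its untreated counterpart, and replicates 2 and 3 were again the higher ones. The difference of -0.79 had an adjusted p of 0.25 over all samples and 0.0039 with the block, and it was -0.56 within numbers 1 and 4 and -1.03 within numbers 2 and 3. In TGF-beta replicate 1 the value of 4.88 is under the dimmest detected probe of that array (5.12). The -0.56 is therefore in part a difference from background, and the sizes in the 2 sets cannot be compared. Of the 38, Myl9 was the 1 member lower past the threshold in any of the fits run, and it was detected on 3 TGF-beta arrays. Mylk and Myl12a rose in the same fit with the block, and Cnn2 and Mylk were described in full after their values were seen.

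The same division was seen in Capg and Cnn2 with the sets the other way round. Capg averaged 8.49 over the 4 samples numbered 2 and 3 and 10.19 over those numbered 1 and 4, and its difference was 2.69 within replicates 2 and 3 and 1.86 within replicates 1 and 4. Cnn2 read 7.26, 5.81, 6.19 and 7.09 in TGF-beta replicates 1 to 4, against 6.2, 4.59, 4.73 and 6.3 in untreated replicates 1 to 4. It rose with the replicate block (limma, adjusted p = 0.00047) and within each set, with 0.92 for replicates 1 and 4 and 1.34 for replicates 2 and 3. Its untreated values of 4.59 and 4.73 are under the dimmest detected probe of each array (5.04 to 5.23). It was detected on 2 untreated arrays, so the 1.34 is a difference from background and the sizes in the 2 sets cannot be compared. Samples that share a number deviated together (correlations of 0.512 to 0.554). Samples of different numbers within a set were not compared, so whether pairing by number goes beyond the division into sets was not tested. With the replicate block 25 of 38 members rose and 1 fell, against 14.4% and 17.3% of all tested genes. The 21 calls were kept, and Cnn2, Mylk, Pxn and Ilk were added as higher and Myl9 as lower.

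**Figure D3:**
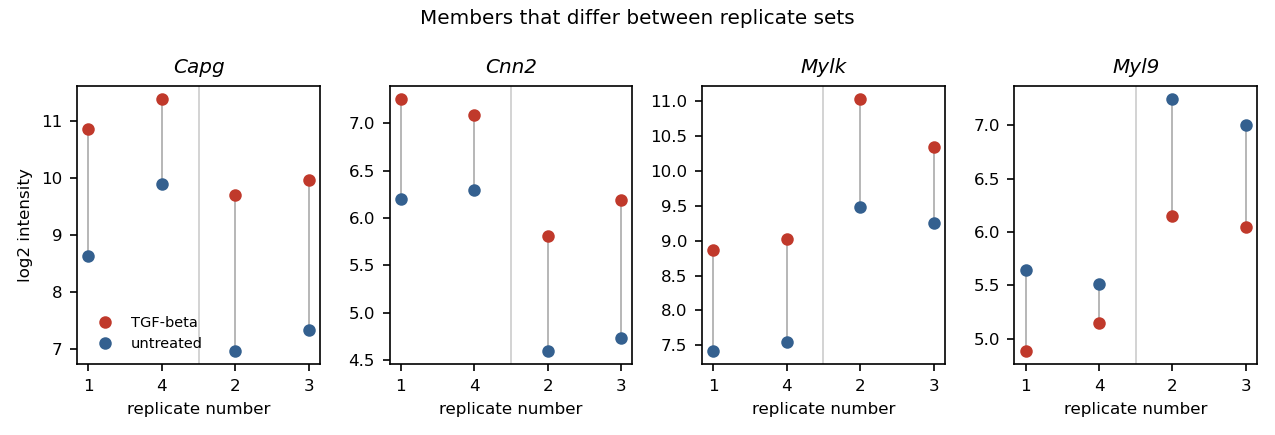
Normalized log2 intensity of Capg, Cnn2, Mylk and Myl9 by replicate number, TGF-beta in red and untreated in blue, with a grey line joining samples of the same number and replicates 1 and 4 placed left of replicates 2 and 3. Capg and Cnn2 are higher in replicates 1 and 4, Mylk and Myl9 in replicates 2 and 3, and within each number Myl9 is the 1 gene with TGF-beta below untreated.

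Of the focal adhesion components, 3 of 7 tested genes rose and 0 fell. Vcl encodes vinculin, which links talin to actin and whose promoter with its CArG box is printed above. It read 10.36, 9.86, 10.11 and 10.3 in TGF-beta replicates 1 to 4, against 9.47, 9.18, 9.33 and 9.47 in untreated replicates 1 to 4. The groups did not overlap, at a difference of 0.79 (SE 0.153, 1.73-fold, adjusted p = 0.0057). Zyx, which encodes the LIM protein zyxin that gathers on tensed filaments, read 12.27, 12.33, 11.92 and 11.92 in TGF-beta replicates 1 to 4, against 11.45, 11.23, 11.18 and 11.44 in untreated replicates 1 to 4. All its TGF-beta values were above the untreated ones, at a difference of 0.78 (SE 0.152, adjusted p = 0.006). Bcar1, the scaffold p130Cas, rose by 0.67 (SE 0.153, adjusted p = 0.014), and was 0.42 within replicates 1 and 4, where it did not pass (adjusted p = 0.13).

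Paxillin, Pxn, a scaffold at the adhesion, also gave 0.67 (SE 0.209) and just missed the threshold (adjusted p = 0.0504), and the integrin-linked kinase gene Ilk gave 0.43 (SE 0.138, adjusted p = 0.054). Both rose with the replicate block (adjusted p = 0.023 for Pxn and 0.04 for Ilk). Parva, the actin-binding partner of that kinase, showed no difference between its means, at 0 with a 95% confidence interval from -0.43 to 0.43. Tln2, a talin, gave -0.16 (adjusted p = 0.63, 3 TGF-beta arrays), and the more widely expressed Tln1 was below the detection filter.

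The largest gain of the group came from a LIM protein. Pdlim7, whose product binds alpha-actinin and tropomyosin through its PDZ domain and carries LIM domains that bind kinases, read 11.13, 11.23, 10.97 and 11.15 in TGF-beta replicates 1 to 4. In untreated replicates 1 to 4 it read 8.52, 7.89, 7.91 and 8.7. The lowest TGF-beta value, 10.97, was far above the highest untreated value, 8.7, and the difference was 2.86 (SE 0.2, 7.27-fold, adjusted p = 1.7e-05). It was 2.53 within replicates 1 and 4 and 3.2 within replicates 2 and 3. Msn encodes moesin, which ties filaments to the membrane, and read 7.05, 6.59, 6.58 and 6.79 in TGF-beta replicates 1 to 4, against 5.27, 4.57, 4.96 and 5.18 in untreated replicates 1 to 4. It was detected on 4 TGF-beta and 2 untreated arrays, and the difference was 1.76 (SE 0.185, adjusted p = 0.00021). Its untreated mean of 5 is under the dimmest detected probe of each array (5.04 to 5.23), so no fold is given. On the authors' deposited table it was 0.64 (adjusted p = 9e-04). The same table gave 0.52 for Gsn, 0.73 for Flna, 0.33 for Myl12a and 0.36 for Bcar1, each past the threshold and smaller than here.

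Of its relatives among the membrane linkers, Rdx was below the filter and Ezr was not analysed here. Lmo7, a LIM and calponin-domain protein of cell junctions, read 8.82, 8.48, 8.46 and 8.68 in TGF-beta replicates 1 to 4, against 7.77, 8.03, 7.97 and 7.79 in untreated replicates 1 to 4. It rose by 0.72 (SE 0.141, adjusted p = 0.0062), with 0.97 within numbers 1 and 4 and 0.47 within numbers 2 and 3, where it did not pass (adjusted p = 0.062). Pdlim1, a close relative of Pdlim7, gave 0.34 (SE 0.141, adjusted p = 0.13).

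Srf, the transcription factor that drives many of these genes in other settings, did not pass at the transcript level. It read 7.58, 8, 7.49 and 7.36 in TGF-beta replicates 1 to 4, against 7.53, 8.13, 7.67 and 7.74 in untreated replicates 1 to 4. The groups overlapped and the difference was -0.16 (SE 0.184, 95% confidence interval -0.57 to 0.25, adjusted p = 0.61). An RNA level says nothing of the activity of the protein, which depends on its cofactors.

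The effect of TGF-beta was also read within each replicate set. Both sets were read from 1 fit of all 8 samples, which pools their spread, so their p-values are not independent checks. Within replicates 1 and 4, 18 members rose and 0 fell, where 9.47% and 9.58% of all tested genes did, and within replicates 2 and 3, 23 rose and 1 fell, where 10.9% and 11.8% did. The difference between the sets had an unadjusted p below 0.05 in 1 of the 38 members and in 10.1% of all tested genes. That member was Pdlim7, with 0.67 more in replicates 2 and 3 (SE 0.242, limma, adjusted p = 0.41). After adjustment 0 members passed, and 1 of 9062 tested genes did.

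**Figure D4:**
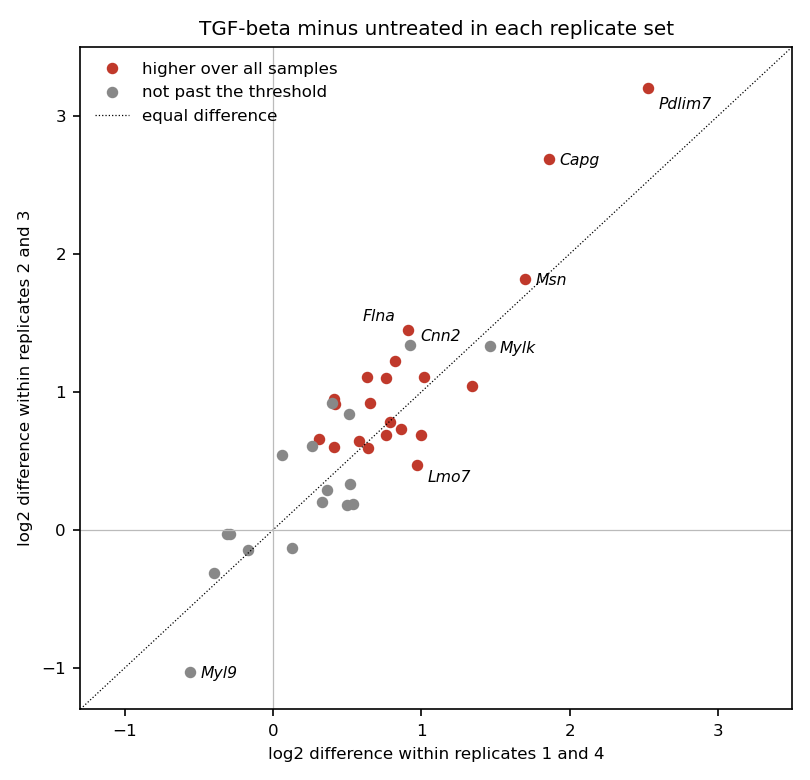
Log2 difference, TGF-beta minus untreated, within replicates 2 and 3 against that within replicates 1 and 4 for the 38 tested genes (2 samples of each group in each set), with the 21 genes past the threshold over all samples in red. The dotted line marks an equal difference. Pdlim7 (2.53 and 3.2) and Capg (1.86 and 2.69) lie at the top and Myl9 (-0.56 and -1.03) at the bottom.

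The 38 genes had 63 tested probes, of which 31 rose and 0 fell, against 8.8% and 8.86% of all 15573 tested probes. Of 16 genes with more than 1 tested probe, all probes rose in 4 (Capg, Arpc5, Tpm1 and Msn), some but not all rose in 9, and none passed in 3 (Cnn2, Lima1 and Mylk). The 3 probes of Mylk gave 1.4, 1.27 and 1.17, and each showed the same division of replicates. The 2 probes of Tpm1 gave 0.93 and 0.89. In Tpm3 the differences were 0.79, 0.44 and 0.06, and in Tpm4 they were 1.02, 0.94 and 0.18. Both genes make several transcripts, and the sources used here do not say which of them each probe reads.

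Actb was the gene whose probes disagreed most. Its 3 bright probes rose by 0.84, 0.76 and 1.02. The other 2 were dimmer and gave -1.29 (SE 0.533, adjusted p = 0.13) and -1.31 (SE 0.557, adjusted p = 0.14). The first of these, ILMN_2846865, read 8.38, 9.5, 6.41 and 8.43 in TGF-beta replicates 1 to 4, against 8.8, 9.68, 9.79 and 9.61 in untreated replicates 1 to 4. TGF-beta replicate 3 was low on it and on its companion ILMN_2588055 (5.98), while the same sample was 14.45 on the brightest probe, next to 14.72 to 14.89 in the other TGF-beta samples. The sources used here do not give the place of each probe on the transcript. Without TGF-beta replicate 3 the difference on the brightest probe was 0.93 (adjusted p = 0.0031), and the mean of all 5 probes gave 0.01 (adjusted p = 0.99).

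Among the other genes with mixed probes, Lasp1 rose on 1 of 3 (0.56, adjusted p = 0.021) and not on its brightest (0.42). That brightest probe read 13.38, 13.32, 12.77 and 13.3 in TGF-beta replicates 1 to 4, against 12.75, 12.62, 12.81 and 12.89 in untreated replicates 1 to 4, with TGF-beta replicate 3 down among the untreated values. Myl12b likewise rose on 1 of 3 probes (0.71, adjusted p = 0.003), Actn4 on 2 of 3 (0.68 and 0.72, with 0.44 on the third), and Myh9, Myl6 and Pfn1 on 1 of 2. Myh9 gave 0.61 and 0.16, Myl6 0.5 and 0.51, and Pfn1 0.49 and 0.34, so the probes of Myl6 differed in their call and not in their size.

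**Figure D5:**
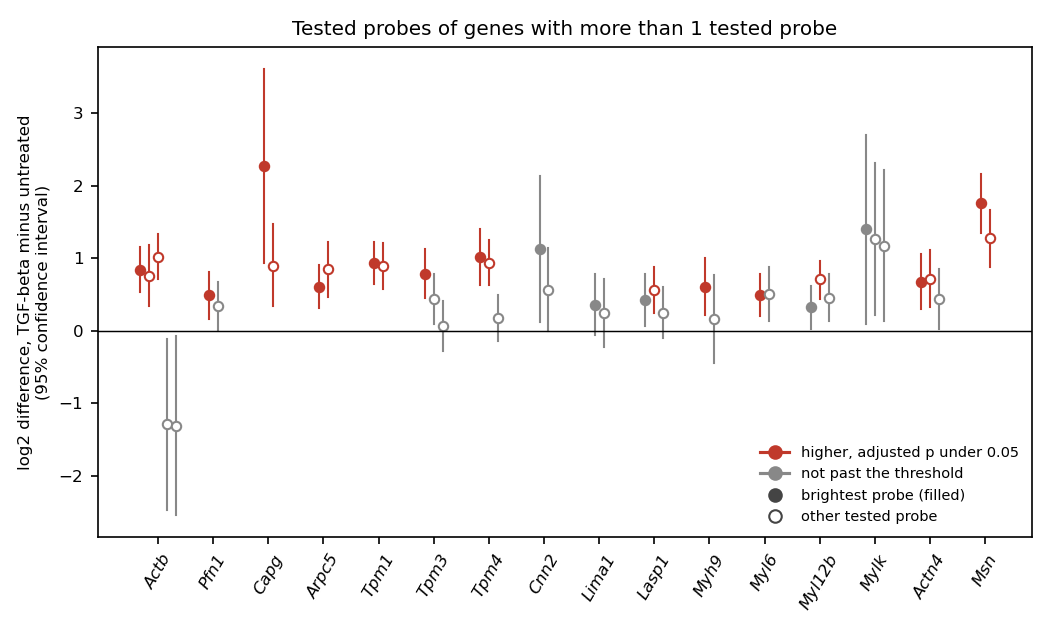
Log2 difference, TGF-beta minus untreated, with its 95% confidence interval for every tested probe of the 16 genes that have more than 1, ordered within a gene by mean level, with the brightest probe filled. Red marks probes past the threshold. The 2 dimmest probes of Actb are the only ones below 0, at -1.29 and -1.31.

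Other genes of the actin machinery were counted from lists written with earlier results of these data known. Of 15 tested genes for branched filaments outside the 48, 3 rose and 0 fell, where 9.57% and 9.88% of all tested genes did (limma, where an unadjusted p below 0.05 gave 6 higher and 1 lower): the branch stabiliser Cttn (0.78) and the Arp2/3 subunits Arpc1b (0.57, with 0.28 within numbers 1 and 4 and 0.86 within numbers 2 and 3) and Arpc1a (0.49).

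Of 30 other genes of filament turnover and bundling, 7 rose and 1 fell, against 9.57% and 9.88% of all tested genes. Tmsb4x and Tmsb10, which encode the monomer-holding thymosins beta-4 and beta-10, rose by 1.46 and 0.68, the monomer recycler Cap1 by 0.98 and the bundling protein Pls3 by 1.78. Lcp1, the plastin best known from blood cells, fell by 0.74 and was named after its value was seen. Of 26 other adhesion and LIM genes, 8 rose and 1 fell, against the same shares of all tested genes. Pdlim4 and Pdlim2, relatives of Pdlim7, rose by 3.15 and 1.82. The LIM protein Fhl2 rose by 1.47 and the plakophilin Pkp1, better known from desmosomes, by 1.5. Kank1 fell by 1.07 and was named after its value was seen.

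Of the cofactors and classical targets of Srf, 12 of 21 were tested, and 5 rose and 0 fell (limma, where an unadjusted p below 0.05 gave 8 higher and 0 lower). Of all tested genes, 9.57% rose and 9.88% fell, and 14.9% and 18% did so before adjustment. The 5 rising genes were Fos (1.63), Ccn1 (1.77), Fhl2 (also counted above), Junb (1.09) and Ccn2 (2.32, adjusted p = 0.011). Several of them are also induced by other pathways, and Ccn2 was named after its value was seen. Ccn2 gave 1.61 within numbers 1 and 4 and 3.04 within numbers 2 and 3. With the replicate block, 9 of the 12 rose and 0 fell, against 14.4% and 17.3% of all tested genes. Among the smooth muscle targets of Srf, Tagln, Cnn1, Myh11 and Actg2 were detected on 0 arrays, and Acta2, detected on 4 TGF-beta and 3 untreated arrays, gave 0.7 (adjusted p = 0.17).

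Markers of other cells were set beside these results. The summed linear level of 8 smooth muscle markers was 340 to 416 in TGF-beta samples, against 327 to 341 in untreated samples, and 5 of the 8 were detected on 0 arrays. For 10 fibroblast markers it was 458 to 590 in TGF-beta samples, against 717 to 1720 in untreated samples. Vim, the 1 of the 10 that was tested, fell by 1.42 (adjusted p = 0.021), with -0.59 for replicates 1 and 4 and -2.26 for replicates 2 and 3. Col1a1, Col1a2, Col3a1, Pdgfra and Pdgfrb were detected on 0 arrays. For 6 endothelial markers it was 148 to 163 in TGF-beta samples, against 153 to 176 in untreated samples, and for 6 immune markers 181 to 208 in TGF-beta samples, against 170 to 202 in untreated samples. Of these, 0 endothelial, 2 immune and 2 smooth muscle markers passed the detection filter, so readings at background make up much of those sums. For 8 epithelial markers the sum was 46000 to 55800 in TGF-beta samples, against 20900 to 24800 in untreated samples, and 6 of the 8 passed as higher while 1, Cdx2, fell. Epcam, 1 of those 6, entered the fit through its TGF-beta arrays alone, so its call is no support. The others were Krt8, Krt18, Krt19, Cdh1 and Vil1, and the part of this shift in the results for the actin genes was not tested.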

How the data were processed

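The members and all gene lists were chosen with earlier results of these data known. Per the file headers, the deposited scanner table gives, for 45281 probes and 8 Illumina arrays, an intensity before normalization with its detection p-value (1 array per sample, biotin-labelled cRNA per the labels). The authors' deposited value table is, from its values, log2 and quantile normalized by a method not given in the sources used here, and served as an alternative. Precision is limited by the number of arrays.

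Background was corrected with normexp (background inferred from detection p-values, offset 16), followed by quantile normalization and log2 (limma 3.58.1, R 4.3.3). Probes with detection p under 0.05 on at least 4 arrays were tested, 15573 in all, with lmFit and eBayes on group alone, two-sided, Benjamini-Hochberg adjusted over all tested probes (threshold 0.05). Differences are log2, TGF-beta minus untreated. Platform annotation gave 34885 probes a single gene symbol and 18 several, and 10378 are unnamed here; 34807 matched a RefSeq table by Entrez identifier. The tested probe with the highest mean represents a gene. Values per sample are given for rising genes with a difference of at least 1 or an adjusted p under 0.01, for members whose tested probes differ in call, and for Actb, Tpm1, Myl9, Vcl, Zyx and Srf. From the other lists up to 4 rising genes with the smallest adjusted p are named. Same-numbered samples deviate together (correlations 0.534, 0.512, 0.514 and 0.554), although the labels tie the numbers to nothing. The fit was tested on simulated data with independent samples, which leave out that shared deviation. Figures used matplotlib 3.10.9. One list of related genes is not reported here.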

Additional observations from a re-analysis of the deposited data

Results flagged for a closer look

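Over 126 groups of 4 values (63 tested probes in each treatment), 5 held a sample far from the other 3 by Dixon's criterion, where chance flags about 1 group in 20. Bcar1 read 7.25 in TGF-beta replicate 4, against 7.53 to 7.56 in the other TGF-beta samples. Lasp1 read 12.77 in TGF-beta replicate 3, against 13.3 to 13.38 in the others, and without that sample Lasp1 rose (adjusted p = 0.024). The second probe of Msn, ILMN_1229193, read 5.93 in TGF-beta replicate 1, against 6.3 to 6.34. Among untreated samples, the Actb probe ILMN_2588055 read 8.45 in replicate 1, against 9.37 to 9.47, and the Lasp1 probe ILMN_2596851 read 6.47 in replicate 3, against 6.82 to 6.86.

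The second probe of Myh9, ILMN_2604864, went opposite ways in the replicate sets: both TGF-beta values were above both untreated values in replicates 1 and 4, and below them in replicates 2 and 3. Its effect in replicates 2 and 3 minus that in replicates 1 and 4 was -0.84 (interaction in limma, adjusted p = 0.43), and the brightest Myh9 probe gave -0.05.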

How the results depend on the processing

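Each result was recomputed under up to 14 other settings and with each of the 8 samples left out in turn, and of the 38 members only Parva, at 0 over all samples, took either sign (from -0.16 to 0.13 over the settings and from -0.11 to 0.16 with a sample left out). The number of members that rose was 10 with median scaling and otherwise stayed within 1.5 times of 21, at 15 to 20 with a sample left out. Members that fell numbered 1 with the replicate block, with the replicate set as a block and within replicates 2 and 3 (Myl9 each time). The replicate block gave 1302 higher and 1566 lower genes in all, against 867 and 895 without it, and the set as a block gave 1308 and 1580. Beyond the additions of Cnn2, Mylk, Pxn, Ilk and Myl9, the replicate block changed no call among the 38. Median scaling gave 495 higher genes in all. With a sample left out, 663 to 756 genes were higher and 572 to 805 lower, the fewest without untreated replicate 1. The member median was 0.48 without background correction, 0.53 with median scaling and 0.48 on the authors' deposited table, and 0.6 to 0.72 with a sample left out. The causes of these shifts were not tested. Of the 21 rising members, 15 passed in all 8 fits that left out a sample, and 7 (Gsn, Tpm1, Tpm4, Actn1, Flna, Zyx and Pdlim7) passed in every fit run. How many of all 867 higher genes did so was not counted. Msn passed in every fit that tested it, and the filter of a detection p under 0.01 on all 8 arrays left it untested. The mean of a gene's probes lost Actb, Myh9 and Pfn1, and no filter lost Capg and Myh9. The chip as a block was not run, because the file headers name none.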

Other observations

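Several actin genes outside the 48 also differed between the replicate sets, and passed the threshold when the replicate number was a block and not without it. They were picked after their values were seen. Scin, an actin-severing protein related to gelsolin, read 5.68, 8.19, 8.01 and 4.9 in TGF-beta replicates 1 to 4, against 6.57, 9.39, 9.84 and 6.56 in untreated replicates 1 to 4. Its difference of -1.39 had an adjusted p of 0.35 over all samples and 4e-04 with the block (limma). Tns4, a tensin of focal adhesions, read 12.4, 10.95, 11.12 and 12.47 in TGF-beta replicates 1 to 4, against 10.9, 9.52, 9.89 and 11.32 in untreated replicates 1 to 4, a difference of 1.32 with adjusted p of 0.075 and 0.00012 in those fits. Here replicates 1 and 4 were the higher ones. Avil, a villin relative, gave 0.84 (adjusted p = 0.31, and 0.0073 with the block), and Ankrd1, a target of mechanical signalling, 1.34 (adjusted p = 0.25, and 0.0026 with the block). Anln, a scaffold of the cleavage furrow, gave -1.09 (adjusted p = 0.068, and 0.0011 with the block).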
